A study of Mus musculus with 8 samples.

Results

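Transcripts of 38 genes of mitosis and DNA replication were followed in 8 prostate tumours. The genes were taken by symbol from a set list, and all 38 were found among the 24028 genes of each table. 15 of them act in mitosis or mark cells that divide, and 23 act in DNA replication or the step that leads into it. The tumours grew from TRAMP-C2 cells, an epithelial adenocarcinoma line from the prostate of a TRAMP transgenic mouse. The same line was injected into the dorsolateral prostate of male C57BL/6 mice, whose immune systems were intact. The hosts of 4 tumours were aged (20 to 24 months) and those of 4 were young (4 months), and tumours were collected 30 to 45 days later. Each tumour is named by its host group and the mouse number in the labels: aged 46, 47, 50 and 51, and young 36, 37, 40 and 43. RNA came from homogenised tumour, in which injected and host cells are mixed. A lower level of a transcript may thus mean fewer cells of a type or less RNA per cell, and these cannot be told apart.

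A dividing cell first copies its genome and then separates the copies. Before S phase, ORC, Cdc6 and Cdt1 load the hexameric MCM helicase at origins. Cyclin E with Cdk2 and the E2F transcription factors start S phase, and GINS and Cdc45 turn the helicase on. Later, cyclins A and B with Cdk1 drive the cell into mitosis, where Aurora and Polo kinases build the spindle and Bub proteins hold back anaphase until each chromosome is attached. E2F factors drive the genes of the first wave, and B-MYB, FOXM1 and the MuvB complex those of the second wave. MuvB binds a short promoter element called CHR.

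Letters of the E2F motif, of the CHR and of the CCAAT box were looked for in the promoters. Sequences were read from a RefSeq table of build GRCm38.p6, which had 32 of the 38 genes with 35 starts, and the 250 bases before each start as that table gives it were searched on both strands. Of the 35 starts, 19 lie at the outermost start of the gene in RefSeq and 16 lie inside the gene, and 31 matched a GENCODE transcript of the gene. Aurkb, Ccna2, Tpx2, Mcm4, Ccne2 and Gins2 were not in it. The E2F motif was searched as TTTCCCGC, TTTGGCGC or TTTCGCGC, the CHR as TTTGAA and the CCAAT box as CCAAT. An E2F motif was in 1 of 12 mitotic genes and 6 of 20 replication genes, against 1.78% of the 27025 genes in the table. A CHR was in 5 of 12 mitotic genes and 3 of 20 replication genes, against 18.3% of all genes. A CCAAT box was in 11 of 12 mitotic genes and 13 of 20 replication genes, against 37.5% of all genes. For 6 of the 35 starts the whole window lies inside the gene, among them the windows with the E2F motifs of Cdc6 and Uhrf1. Without such windows, a split added after the counts were seen, an E2F motif was in 1 of 11 mitotic and 4 of 18 replication genes (1.56% of 23722 genes), a CHR in 5 and 2 (16.9%) and a CCAAT box in 10 and 13 (35.2%). A match is only a match of letters, the base composition of these promoters was not matched to that of all promoters, and no match says only that these letters are missing from this window.

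The promoters of 4 genes are shown as examples that hold the motifs, with the mitotic genes Mki67 and Top2a before the helicase genes Mcm5 and Mcm6. Each ends at the base before the start in the promoter table, and by the RefSeq gene coordinates the last 71 bases of Mki67, 10 of Top2a, 41 of Mcm5 and 0 of Mcm6 lie inside the gene. Capitals mark E2F, CHR and CCAAT letters on either strand. Mki67 and Top2a each hold 2 CHR matches and several CCAAT boxes. In Mcm5 and in Mcm6, E2F matches on opposite strands overlap within 1 run of capitals, and Mcm6 holds a further E2F match nearer its start.
Mki67 (GRCm38, chr7:135716380-135716629, minus strand): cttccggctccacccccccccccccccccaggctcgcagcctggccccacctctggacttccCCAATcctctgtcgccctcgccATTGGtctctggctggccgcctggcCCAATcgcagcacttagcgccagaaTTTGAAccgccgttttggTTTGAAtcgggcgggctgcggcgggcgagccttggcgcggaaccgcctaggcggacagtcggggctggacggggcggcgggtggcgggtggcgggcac
Top2a (GRCm38, chr11:99024190-99024439, minus strand): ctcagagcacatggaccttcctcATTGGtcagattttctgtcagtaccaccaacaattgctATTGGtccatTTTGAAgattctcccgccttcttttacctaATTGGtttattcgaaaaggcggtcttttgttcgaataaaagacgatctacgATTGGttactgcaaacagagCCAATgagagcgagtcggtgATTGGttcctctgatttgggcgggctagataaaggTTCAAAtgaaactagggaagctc
Mcm5 (GRCm38, chr8:75109259-75109508, plus strand): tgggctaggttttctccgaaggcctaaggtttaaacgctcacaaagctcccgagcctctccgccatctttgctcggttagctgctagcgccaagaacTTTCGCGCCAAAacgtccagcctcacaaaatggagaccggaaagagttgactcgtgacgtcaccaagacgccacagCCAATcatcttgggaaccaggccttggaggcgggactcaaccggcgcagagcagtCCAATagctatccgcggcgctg
Mcm6 (GRCm38, chr1:128359706-128359955, minus strand): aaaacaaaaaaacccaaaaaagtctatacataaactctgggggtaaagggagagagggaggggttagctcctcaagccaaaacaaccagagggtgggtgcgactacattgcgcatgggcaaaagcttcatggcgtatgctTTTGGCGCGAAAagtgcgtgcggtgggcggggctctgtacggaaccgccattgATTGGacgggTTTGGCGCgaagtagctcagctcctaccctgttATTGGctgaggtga

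The libraries held 27054498 (young 37) to 35729488 (young 43) fragments. CPM, as the authors deposited it, is the fragment count of a gene per 1000000 counted fragments, and 3 fragments equal 0.084 to 0.111 CPM (counting error alone). All 38 genes were far above this limit in each tumour, the lowest being the 131 fragments of E2f2 in aged 51. As a check of the labelled cell type, 7 epithelial genes were read: Krt8 stood at 21.5 to 118 CPM in aged and 30.7 to 124 CPM in young tumours, and Epcam, an epithelial adhesion protein, at 8.67 to 69.4 CPM in aged and 0.70 to 52.5 CPM in young tumours. Their sum was 72.4 to 514 CPM in aged and 53.0 to 293.9 CPM in young tumours. Seminal vesicle genes summed to 36950 CPM in young 36 and 21250 CPM in aged 50, and to at most 17.1 CPM in the others. The sum of 7 prostate secretory genes was highest in young 37 (11130 CPM), followed by aged 50 (5256 CPM) and young 36 (1407 CPM). The set medians, and the fold changes of those single genes that changed sign, are also given without young 36 and aged 50. These fits keep young 37.

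Levels of different genes were compared per length, by the deposited FPKM (CPM per kilobase of transcript), and the values in this paragraph are medians over the 8 tumours. Pcna, the sliding clamp that holds polymerases on DNA, was the most abundant of the 38 at 169 FPKM, and Tk1, the thymidine kinase of the nucleotide salvage pathway, was second at 90.8 FPKM. The 6 subunits of the MCM helicase lay close together, from 33.6 FPKM (Mcm5) to 58.5 FPKM (Mcm7). The mitotic genes ran from 46.3 FPKM for Top2a, the topoisomerase that untangles sister chromatids, down to 3.62 FPKM for Cenpf, a large kinetochore protein. E2f2 was the lowest of all at 2.3 FPKM, with E2f1 at 15.5 FPKM. Cyclin E1 (Ccne1) stood at 17.2 FPKM and cyclin E2 (Ccne2) at 3.97 FPKM, while the mitotic cyclins Ccnb1 and Ccna2 stood at 42.9 and 46.2 FPKM.

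Tumours of the same host age differed widely. Young 43 had the highest CPM for 28 of the 38 genes, aged 46 for 8, aged 51 for Cenpf and young 37 for Birc5. At the other end, young 36 was lowest for 15, aged 50 for 12, aged 51 for 10 and aged 47 for Pola1. With TMM factors, which correct for a few very abundant transcripts, young 43 was highest for 22 and aged 46 for 13, and aged 50 was lowest for 22 and young 36 for 8. The highest over the lowest tumour came to 1.29-fold (Ccnb2) to 2.24-fold (Cenpf) among mitotic genes and to 1.37-fold (Tyms) to 3.47-fold (E2f2) among replication genes. Together the 38 genes took 0.409%, 0.309%, 0.282% and 0.323% of all fragments in aged 46, 47, 50 and 51, and 0.287%, 0.345%, 0.332% and 0.464% in young 36, 37, 40 and 43. Aged 46 and young 43 were thus each above the other 3 tumours of their group, and the groups overlapped.

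**Figure D1:**
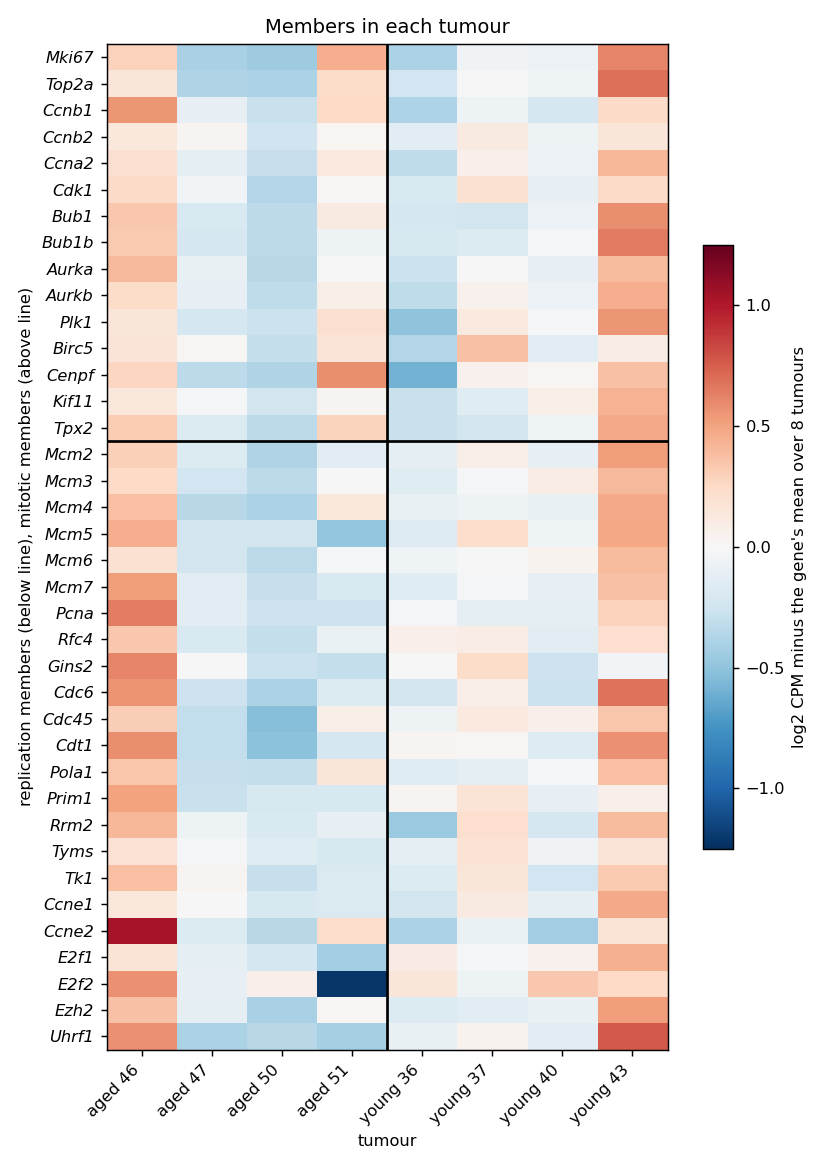
Each row is 1 of the 38 genes and each column 1 tumour, with aged hosts left of the vertical line and mitotic genes above the horizontal line, and colour gives log2 CPM (TMM factors, prior count 2) minus the mean of that gene over the 8 tumours. Aged 46 and young 43 are red in nearly every row, aged 50 is blue in nearly every row, and aged 51 is red in most upper rows and blue in most lower rows, with E2f2 as its darkest cell.

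Of the genes that mark dividing cells, Mki67, the Ki-67 antigen that coats mitotic chromosomes, had 176, 119, 116.5 and 199 CPM in the aged tumours and 111, 148, 150.5 and 236 CPM in the young tumours, in the order of tumours given above, which is kept from here on. Top2a had 271, 206, 204 and 288 CPM in the aged tumours and 210.1, 258, 258 and 420.3 CPM in the young tumours. In both genes young 43 was the highest tumour, aged 51 and aged 46 came next, and the 2 groups overlapped.

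The kinase Cdk1 and its partners came next. Cdk1, the kinase that starts mitosis, had 110.2, 99.9, 79.3 and 94.9 CPM in the aged tumours and 82.9, 112, 95.1 and 118 CPM in the young tumours. Ccnb1, its main mitotic cyclin, had 144, 99.8, 88.8 and 117 CPM in the aged tumours and 76, 99.2, 93 and 124 CPM in the young tumours. Young 43 was the highest tumour for Cdk1 and aged 46 for Ccnb1, which had the smallest p of the 15 mitotic genes, with a log2 fold change of 0.23 ± 0.21 (SE) and an edgeR adjusted p of 0.924. Ccnb2, the second mitotic B cyclin, had 47.6, 48.7, 40.1 and 44.5 CPM in the aged tumours and 39.9, 49.6, 45.7 and 51.5 CPM in the young tumours, and it was the steadiest of the mitotic genes, with an SD within groups of 0.15 on the log2 scale. Ccna2, the cyclin of S and G2 phase, averaged 126 ± 13.2 CPM in aged and 133 ± 30.4 CPM in young hosts (mean ± SD of 4 per age).

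Among the regulators of the spindle, Plk1, the Polo kinase, had 42.9, 36.2, 35.1 and 44.7 CPM in the aged tumours and 27.5, 44.4, 41.6 and 60.3 CPM in the young tumours. Aurkb, the kinase of the chromosomal passenger complex, had 53.5, 46.6, 40.3 and 48.3 CPM in the aged tumours and 37.2, 50, 47.5 and 66.8 CPM in the young tumours. Birc5, or survivin, a partner of Aurkb in that complex, had 111, 110.5, 89 and 113 CPM in the aged tumours and 78.7, 135, 99.5 and 113 CPM in the young tumours. The lowest of the 8 was young 36 in all 3, while the highest was young 43 for Plk1 and Aurkb and young 37 for Birc5.

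The checkpoint kinase gene Bub1b had 84.7, 64, 59.3 and 65.2 CPM in the aged tumours and 59.7, 63.4, 73.6 and 113 CPM in the young tumours, and young 43 stood above all others. Its relative Bub1 averaged 47.8 ± 7.73 CPM in aged and 50.3 ± 15.4 CPM in young hosts, and Aurka, the centrosomal Aurora kinase, 42.6 ± 7.73 CPM in aged and 43.7 ± 9.51 CPM in young hosts. Tpx2, which activates Aurka on the spindle, averaged 96.2 ± 16.2 CPM in aged and 95.4 ± 26.2 CPM in young hosts, and the motor gene Kif11, which pushes the poles apart, 57.9 ± 4.05 CPM in aged and 61.1 ± 14.9 CPM in young hosts (mean ± SD of 4 per age). Cenpf averaged 40.3 ± 11.4 CPM in aged and 38.8 ± 10.6 CPM in young hosts, and aged 51 had the highest value (54.9 CPM) and young 36 the lowest (24.5 CPM).

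Among subunits of the MCM helicase, Mcm2 had 212, 168, 146 and 159 CPM in the aged tumours and 163, 193, 176.5 and 266 CPM in the young tumours. Mcm5 had 162, 110.5, 111 and 85.5 CPM in the aged tumours and 107, 145, 125 and 177 CPM in the young tumours. Mcm6 had 194, 158, 148 and 169 CPM in the aged tumours and 165.5, 179.7, 191 and 238 CPM in the young tumours. All 3 were highest in young 43 and second in aged 46, but aged 51, which was near the top for Mki67 and Top2a, was the lowest of all for Mcm5 and in the middle for Mcm6.

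Mcm3 averaged 134 ± 18.2 CPM in aged and 151 ± 28.6 CPM in young hosts, Mcm4 135 ± 28.7 CPM in aged and 147.5 ± 32.5 CPM in young hosts and Mcm7 147 ± 36.3 CPM in aged and 151 ± 27.7 CPM in young hosts (mean ± SD of 4 per age). Pcna had 331, 211.5, 195 and 179 CPM in the aged tumours and 214, 206, 214 and 278 CPM in the young tumours, with aged 46 on top and aged 51 lowest. The loading factor gene Cdc6 had 32, 19.8, 18.1 and 19.4 CPM in the aged tumours and 18.8, 24.2, 19.7 and 37 CPM in the young tumours. Its partner gene Cdt1 had 117, 69, 60.1 and 67.8 CPM in the aged tumours and 80.9, 82.9, 76.8 and 124 CPM in the young tumours. Both were highest in aged 46 and young 43 and lowest in aged 50, and the groups overlapped.

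Of the other fork genes, Cdc45 averaged 39.8 ± 8.43 CPM in aged and 46.7 ± 6.34 CPM in young hosts, Gins2 39 ± 11.3 CPM in aged and 37.8 ± 4.79 CPM in young hosts and the clamp loader subunit gene Rfc4 36.9 ± 6.04 CPM in aged and 40.1 ± 3.62 CPM in young hosts (mean ± SD of 4 per age). Pola1 and Prim1, of the polymerase alpha and primase complex, averaged 43.5 ± 7.64 CPM in aged and 45.3 ± 8.73 CPM in young hosts and 37.2 ± 9.18 CPM in aged and 39.1 ± 2.68 CPM in young hosts. For Gins2, Rfc4 and Prim1 the highest tumour was aged 46.

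Enzymes of the nucleotide supply were led by Tk1 with 157, 136, 109 and 107 CPM in the aged tumours and 109, 141, 113 and 162 CPM in the young tumours. Rrm2, the inducible subunit of ribonucleotide reductase, had 139, 109, 100.3 and 97.8 CPM in the aged tumours and 76.2, 126, 98.5 and 146 CPM in the young tumours. Tyms, which makes thymidylate, had 56.3, 53.4, 49.2 and 43.5 CPM in the aged tumours and 46.7, 59.5, 53 and 59.6 CPM in the young tumours. Tyms was the steadiest replication gene, with an SD within groups of 0.16 on the log2 scale, and the 3 highest tumours for all 3 genes were aged 46, young 37 and young 43.

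Of the cyclins that start S phase, Ccne1 had 35.3, 35, 30.6 and 28.5 CPM in the aged tumours and 27.7, 36.4, 32.1 and 47.3 CPM in the young tumours. Ccne2 had 26.7, 12.7, 11.2 and 15.2 CPM in the aged tumours and 10, 12.9, 10.5 and 15.7 CPM in the young tumours. Ccne1 was highest in young 43, but Ccne2 was highest in aged 46, at 26.7 CPM against 10.02 to 15.7 CPM in the other 7 tumours.

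E2f1, an activating E2F factor, had 50.4, 45.6, 42.5 and 33.6 CPM in the aged tumours and 49, 46.8, 51.2 and 65.4 CPM in the young tumours. E2f2, a close relative, had 15.1, 10.3, 11.6 and 4.33 CPM in the aged tumours and 11.4, 10.2, 14 and 12.8 CPM in the young tumours. For both genes aged 51 was the lowest tumour, and its E2f2 value lay below the 10.2 to 15.05 CPM of the other 7. E2f2 had the largest SD within groups of the 38 genes (0.55 on the log2 scale, 0.76 in aged and 0.17 in young tumours).

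Of the genes that copy chromatin marks behind the fork, Ezh2, the methyltransferase of Polycomb complex PRC2, had 102, 80.5, 65.8 and 80.7 CPM in the aged tumours and 71.6, 76.4, 81.4 and 122 CPM in the young tumours. Uhrf1, which brings Dnmt1 to newly made DNA, had 173, 97.5, 101 and 88.3 CPM in the aged tumours and 111, 127, 116 and 212 CPM in the young tumours. Aged 46 and young 43 lay above the other 6 in both.

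**Figure D2:**
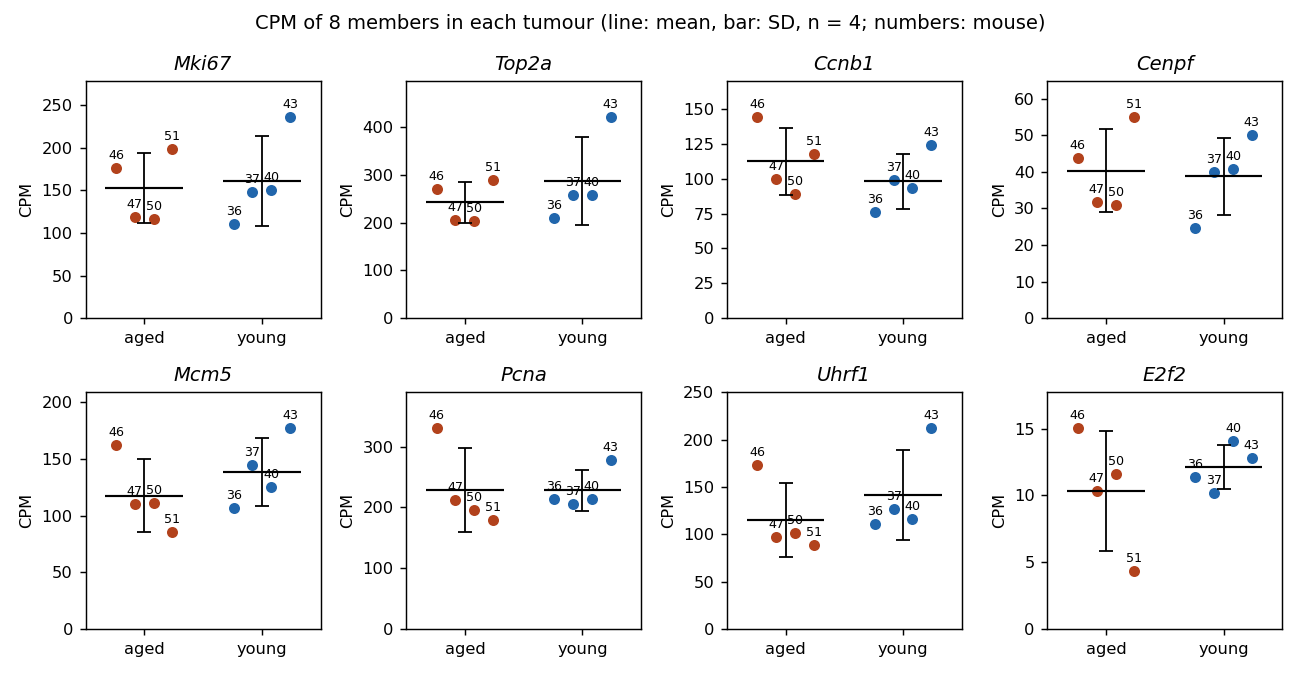
Points are the CPM of 8 of the genes in each tumour, numbered by mouse, with aged hosts left and young hosts right, a line at the mean and a bar of 1 SD (n = 4). Aged 51 is high for Mki67 (198.9 CPM) and Cenpf (54.9 CPM) and low for Mcm5 (85.5 CPM) and E2f2 (4.33 CPM).

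The 2 sets were then averaged per tumour on the log2 CPM scale. The mean of the 15 mitotic genes was 6.50, 6.09, 5.92 and 6.41 in aged 46, 47, 50 and 51, and 5.93, 6.25, 6.18 and 6.66 in young 36, 37, 40 and 43. The mean of the 23 replication genes was 6.49, 5.88, 5.77 and 5.88 in aged 46, 47, 50 and 51, and 5.96, 6.11, 5.97 and 6.44 in young 36, 37, 40 and 43. Aged 46 and young 43 had the 2 highest values of both means. Aged 51 had the third highest mitotic mean. Its replication mean (5.88) was nearly tied with that of aged 47 (5.884) for the second lowest.

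The mitotic mean minus the replication mean was 0.53 in aged 51, against 0.01, 0.20 and 0.15 in aged 46, 47 and 50, and -0.03, 0.14, 0.21 and 0.23 in young 36, 37, 40 and 43. In CPM, aged 51 was among the lowest 2 tumours for 15 of the 23 replication genes and for 0 of the 15 mitotic genes (8 and 0 with TMM factors). Ratios within a tumour do not depend on the scaling between tumours, and 3 were chosen after the values were seen. Mki67 over Mcm5 was 2.33 in aged 51, 1.05 to 1.09 in aged 46, 47 and 50 and 1.02 to 1.33 in the young tumours. Cenpf over Pcna was 0.307 in aged 51, 0.132 to 0.158 in aged 46, 47 and 50 and 0.115 to 0.194 in the young tumours, and Top2a over Mcm2 was 1.82 in aged 51, 1.23 to 1.39 in aged 46, 47 and 50 and 1.29 to 1.58 in the young tumours. Lists of further genes of these processes were read as well. Counted from the highest of 8, aged 51 ranked 3 for the mean of 24 spindle motor and cytokinesis genes (5.75 log2 CPM), 4 for that of 31 further fork genes (5.35) and 3 for that of 13 origin genes (5.24). Aged 51 also ranked 3 for the nucleotide supply, G1 and S phase, G2 and M phase, kinetochore, repair and chromatin lists. It ranked 2 for condensin and cohesin genes (6.875) and 7 for the anaphase-promoting complex and its targets (5.87). The further replication lists thus did not place aged 51 low. The sum of 8 skeletal muscle markers was 146.2 CPM in aged 51, while aged 46, 47 and 50 had 10.4 to 21.04 CPM and young tumours 11.6 to 41.0 CPM, and their part in this split was not tested.

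**Figure D3:**
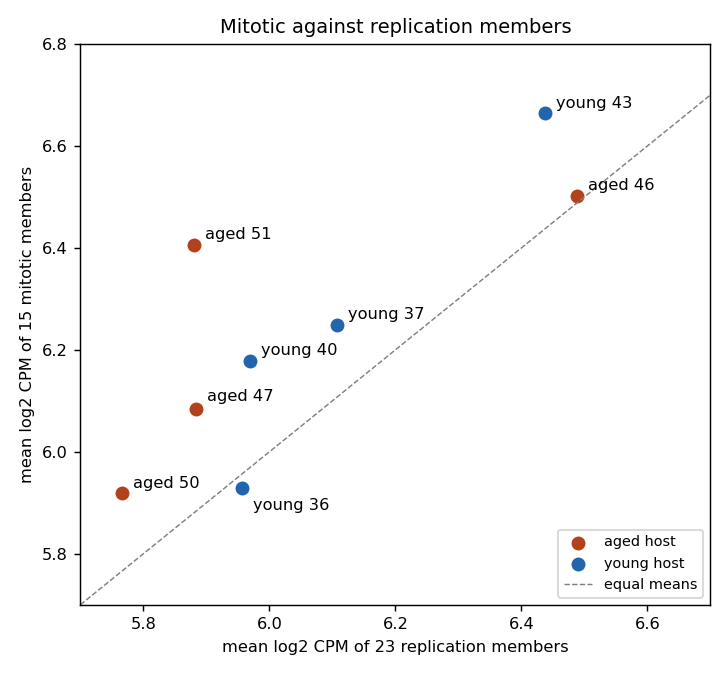
Each point is 1 tumour, placed by the mean log2 CPM of the 23 replication genes (x axis) and of the 15 mitotic genes (y axis), with a dashed line where both means are equal. Aged 51 lies farthest above the line (5.88 on the x axis and 6.41 on the y axis).

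Host ages were compared next. None of the 38 genes passed the test: edgeR's quasi-likelihood fit over 14575 genes gave 0 of 38 at a Benjamini-Hochberg adjusted p of 0.05, with adjusted p from 0.924 to 0.997, and 0 of 38 at an unadjusted p of 0.05. Of all genes, 0% passed after adjustment and 4.99% had an unadjusted p under 0.05. DESeq2 and limma voom with sample quality weights called 0 of the 38 as well, against 0.309% and 0.0617% of all genes. The CPM values of the groups overlapped for all 38 genes, while 3.4% of all genes had no overlap. In log2 CPM with TMM factors 0 of 38 were without overlap, against 3.66% of all genes.

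Mitotic genes had a median log2 fold change of -0.05 (range -0.22 to 0.23), with 4 values above 0 and 11 below. Replication genes had a median of -0.10 (range -0.29 to 0.45), with 4 above 0 and 19 below. Over all genes tested the median was 0.03, and 44.7% of genes had a fold change below 0. The list means differed by less than the spread between tumours. Mitotic genes averaged 6.23 ± 0.27 log2 CPM in aged hosts and 6.26 ± 0.31 in young hosts, and replication genes 6.00 ± 0.33 in aged hosts and 6.12 ± 0.22 in young hosts (mean ± SD of 4).

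These medians moved with single tumours. The mitotic median was 0.09 without young 43 and 0.04 without aged 50, and -0.15 without aged 46, -0.14 without young 36, -0.09 without aged 51, -0.09 without young 40 and -0.02 without aged 47. The replication median was -0.27 without aged 46 and -0.16 without young 40, and -0.01 without young 43, -0.03 without aged 50 and -0.06 without aged 47. The mitotic minus the replication median, 0.06, was 0.00 without aged 51 and 0.02 without young 36, 0.04 without aged 47, 0.11 without young 43 and 0.12 without aged 46. Without aged 50 and young 36, the tumours with seminal vesicle transcripts, the mitotic median was -0.04 and the replication median -0.10.

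Single fold changes were as follows. Ccne2 had a log2 fold change of 0.45 ± 0.31 (SE) and averaged 16.5 ± 7.01 CPM in aged and 12.3 ± 2.6 CPM in young hosts (mean ± SD of 4 per age), with aged 46 above all other tumours. E2f1 had -0.29 ± 0.16 and the smallest p of the 38 (edgeR adjusted p = 0.924), with aged 46 within the range of the young tumours. Uhrf1 had -0.28 ± 0.28, Mcm5 -0.22 ± 0.22, E2f2 -0.22 ± 0.33, Top2a -0.22 ± 0.24, Cdc45 -0.20 ± 0.19, Mcm2 -0.20 ± 0.19 and Mcm6 -0.19 ± 0.15. Mki67 had -0.05 ± 0.27 and Pcna 0.03 ± 0.22. Standard errors of the 38 ran from 0.13 to 0.33 on the log2 scale.

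**Figure D4:**
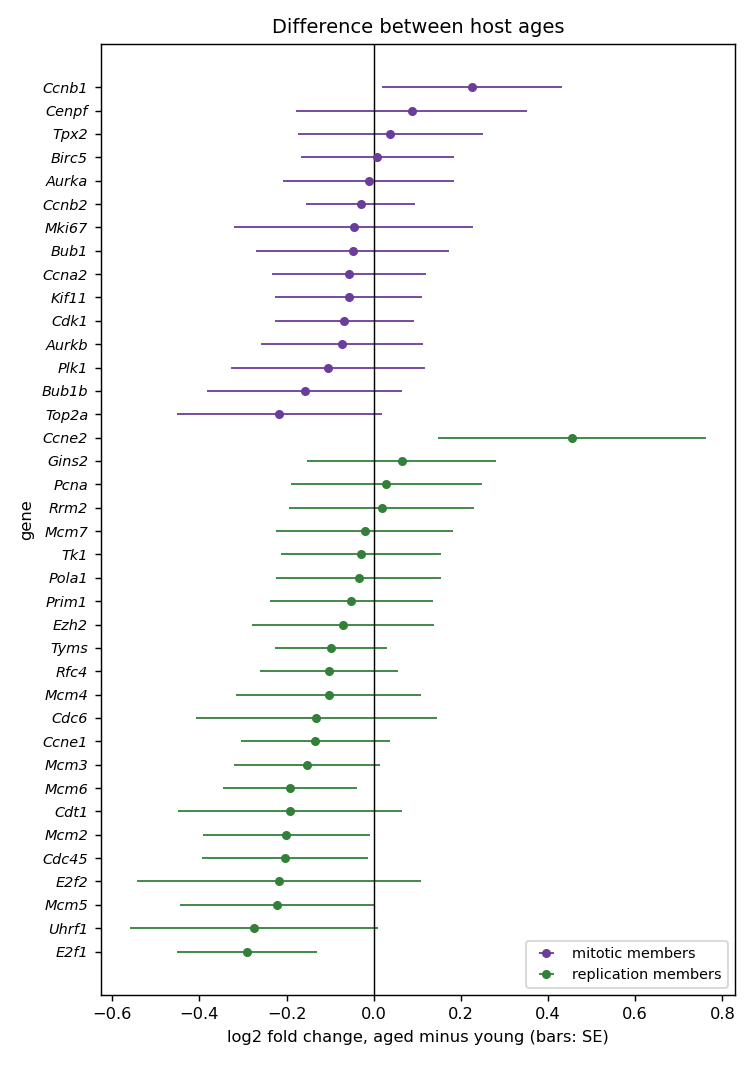
Points are log2 fold changes of aged minus young tumours from edgeR with bars of 1 SE, in purple for the 15 mitotic and green for the 23 replication genes, ordered by value within each set. The values run from -0.29 (E2f1) to 0.45 (Ccne2), and 0 of the 38 passed the adjusted threshold.

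The spread within groups was set beside that of all genes. Across all genes the SD of log2 CPM was larger in aged than in young tumours for 71.9% of genes, with medians of 0.33 in aged and 0.23 in young tumours. Of the replication genes, 18 of 23 had the larger SD in aged tumours, and the median SD was 0.37 there and 0.24 in young ones. Of the mitotic genes, 6 of 15 did, and the median SD was 0.28 in aged and 0.32 in young ones. The widest gaps were those of E2f2 (above) and Ccne2. Prim1 had 0.37 in aged and 0.11 in young tumours, Pcna 0.43 in aged and 0.20 in young, and Cdc45 0.38 in aged and 0.17 in young. In the other direction, Plk1 had 0.25 in aged and 0.44 in young tumours, and Kif11 0.16 in aged and 0.31 in young. These differences in spread were not tested.

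The wider pathway was read from 11 lists with 199 further genes, all of which passed the filter on low counts. None passed edgeR's test (0 of 199, background 0%), 1 had an unadjusted p under 0.05 (background 4.99%), and 0 had groups without overlap (background 3.4%). 104 fold changes were above 0 and 95 below, with a median of 0.01. The 1 gene was Tfdp2, a DNA-binding partner of E2F factors, with 21.5, 24.4, 30.4 and 36 CPM in the aged tumours and 17.3, 18, 17.6 and 21.8 CPM in the young tumours, and a log2 fold change of 0.60 ± 0.18 (SE). Its edgeR adjusted p was 0.924, and aged 46 lay just below young 43.

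On the replication side, 9 of 13 origin genes had fold changes above 0, with Orc2, a subunit of the origin recognition complex, at 0.33 ± 0.19 and Mcm8, a helicase of recombination repair, at -0.30 ± 0.20 (log2, SE). Of 31 fork genes 13 were above 0, with the polymerase epsilon subunit gene Pole3 at 0.19 ± 0.13 and the clamp loader gene Rfc2 at -0.16 ± 0.12. Of 9 nucleotide genes 4 were above 0, with Umps, of pyrimidine synthesis, at -0.21 ± 0.15. Of 17 regulators of G1 and S phase 5 were above 0, with the D cyclin gene Ccnd3 at -0.24 ± 0.12. Of 13 repair genes of S phase 2 were above 0 and 11 below, with the exonuclease gene Exo1 at -0.32 ± 0.21. Rad54l, a motor protein of homologous recombination, had 16.6, 10.8, 11.2 and 4.63 CPM in the aged tumours and 11.8, 15.1, 16.9 and 21.9 CPM in the young tumours, and aged 51 was the lowest tumour, as it was for E2f2. Its log2 fold change was -0.58 ± 0.35. Of 8 chromatin genes 5 were above 0, with Dnmt1, the maintenance DNA methyltransferase, at -0.31 ± 0.20 and the histone H3K9 methyltransferase gene Suv39h2 at -0.12 ± 0.21.

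On the mitotic side, 10 of 15 regulators of G2 and M phase were above 0, with Cks2, a small subunit of Cdk1 complexes, at 0.33 ± 0.24 and Lin54, the MuvB subunit that binds the CHR, at 0.35 ± 0.28. Of 37 kinetochore and checkpoint genes 23 were above 0, with Nuf2, of the microtubule-binding NDC80 complex, at -0.24 ± 0.13 and Hjurp, the chaperone of the centromeric histone, at -0.21 ± 0.12. Of 24 motor and cytokinesis genes 16 were above 0, with the kinesin gene Kif14 at -0.37 ± 0.21 and Ect2, which acts in cytokinesis, at 0.38 ± 0.26. Of 19 genes of the anaphase-promoting complex and its targets 8 were above 0, with its subunit genes Anapc5 at 0.22 ± 0.14 and Anapc7 at 0.21 ± 0.15. Of 13 condensin and cohesin genes 9 were above 0, with the cohesin genes Stag2 at 0.23 ± 0.17 and Stag1 at 0.21 ± 0.20. Each of these fold changes missed the unadjusted threshold too.

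Levels of cell type markers are given beside the mitotic means. From the highest to the lowest mitotic mean, the tumours were young 43, aged 46, aged 51, young 37, young 40, aged 47, young 36 and aged 50. In that order the sum of 8 macrophage genes was 2265, 1453, 2074, 3058, 3204, 3244, 3162 and 2931 CPM. That of the 8 T cell genes in the files, of 9 listed, was 20.9, 16.5, 20.2, 26.6, 69.7, 63.9, 46.2 and 99.4 CPM. That of 5 B and plasma cell genes was 7.61, 2.88, 10.9, 43.8, 100.1, 54.2, 146.5 and 93.5 CPM, and that of the 7 epithelial genes 53.0, 125.8, 72.4, 293.9, 158.1, 292.1, 249.4 and 514 CPM.

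By host group, the macrophage sums were 1453 to 3244 CPM in aged and 2265 to 3204 CPM in young tumours, the T cell sums 16.5 to 99.4 CPM in aged and 20.9 to 69.7 CPM in young, and the B and plasma cell sums 2.88 to 93.5 CPM in aged and 7.61 to 146.5 CPM in young. Those of 7 prostate secretory genes were 95.06 to 5256 CPM in aged and 6.21 to 11130 CPM in young. The macrophage, T cell, B and plasma cell and epithelial lists, 4 of 10, were chosen for the plot after their values were seen. Young 43, aged 46 and aged 51 had the highest mitotic means, and in all 4 lists their sums were below those of every other tumour. None of the lists not plotted split in this way. From the highest to the lowest mitotic mean, the sum of 8 fibroblast genes was 17580, 7729, 16500, 20650, 24870, 13370, 13790 and 17860 CPM. That of the 4 neutrophil genes in the files, of 5 listed, was 39.3, 68.7, 63.9, 92.6, 84.4, 126.4, 52.7 and 64.6 CPM. That of 6 endothelial genes was 273.5, 186.8, 339.6, 253.9, 293.6, 314.2, 225.9 and 246 CPM. No marker had 0 fragments in all tumours, and 0 of those tested passed the adjusted edgeR threshold between host ages. The unadjusted threshold was passed by 2 prostate secretory genes and by 1 gene each of the macrophage, neutrophil, fibroblast and endothelial lists. The part of cell make-up in the levels of the 38 genes was not tested.

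**Figure D5:**
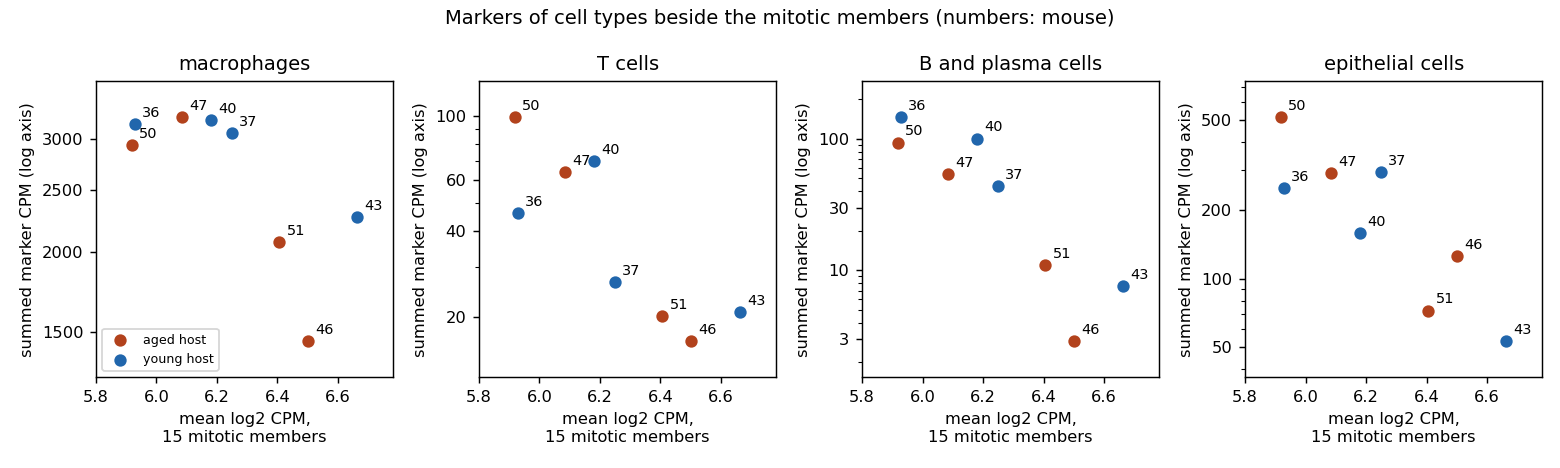
Each panel plots the summed CPM of 1 marker list (y axis, log scale) against the mean log2 CPM of the 15 mitotic genes (x axis) for the 8 tumours, numbered by mouse, in red for aged and blue for young hosts. Aged 46 has the lowest macrophage sum (1453 CPM), and aged 50, with the lowest mitotic mean, the highest epithelial sum (514 CPM).

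Some values carry a limit from the annotation. In GENCODE vM21, on the same build, exons of 10 of the 38 genes overlap those of another gene. The overlaps of Ccna2 with Exosc9, Mcm7 with Ap4m1 and Cops6, Rfc4 with Eif4a2, Gins2 with Gse1, Cdc45 with Ufd1, Tk1 with Afmid and Ccne2 with Ints8 are with protein-coding genes on the opposite strand. The largest was the 2758 bases shared by Gins2 and Gse1. Shared bases were counted over all GENCODE exons of a gene. The Gins2 transcript of the deposited values is 1038 bases long, so not all of the 2758 bases can lie in it. Whether counting used strand is not stated, so the values of Ccna2, Mcm7, Rfc4, Gins2, Cdc45, Tk1 and Ccne2 are less certain. The same holds for Plk1 and Ezh2, which overlap genes not classed as protein-coding on the opposite strand. Top2a shares 122 bases with a snoRNA gene on the same strand, and Mcm7 overlaps the microRNA genes Mir25 and Mir93 on the same strand. Strand would not separate these, so the value of Top2a is less certain too. Mki67 lies on chromosome 7, 135689784 to 135716450, Top2a on chromosome 11, 98992947 to 99024199, Ccne2 on chromosome 4, 11190433 to 11204779, E2f1 on chromosome 2, 154559400 to 154569892 and E2f2 on chromosome 4, 136172274 to 136196057 (GRCm38).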

How the data were processed

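Per the submitters' processing notes, bcl2fastq, TopHat2 2.0.12 and Picard 2.7.1 were used with mouse build GRCm38 (mm10). How fragments were assigned to genes, and with which annotation and strand setting, is not stated there. Per the labels' protocols, TruSeq mRNA libraries were read as 50 bp paired ends. Per the file headers, the authors deposited a fragment count per gene, CPM (headed FPM) and FPKM, which is that CPM per kilobase of transcript.

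The count test was edgeR 4.0.16 (R 4.3.3): filterByExpr (minimum count 10, minimum total 15), TMM factors and the robust quasi-likelihood fit with host age as the only term, over 14575 genes. Fold changes are aged minus young (log2), with SE from the F statistic, and Benjamini-Hochberg adjusted p under 0.05 was the threshold. Log2 CPM used a prior count of 2. DESeq2 1.42.0, limma 3.58.1 voom with sample quality weights, other scalings and filters, and tumours left out were alternatives. The labels do not name batches, and p-values measure the spread between these 4 tumours a group. Between any 2 libraries the chi-square over genes, divided by its degrees of freedom, was at least 42.6. The genes and lists were chosen with earlier results of these data known. The naming rule took all 38 genes, gave values in every tumour for 21 fixed ones and for those with the smallest p or extreme spread in each set, and took the 2 genes of smallest p from each further list, of which 1 gene is not reported here.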

Additional observations from a re-analysis of the deposited data

Results flagged for a closer look

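Single tumours stood far from the other 3 of their host group in 9 of 126 gene and group pairs examined (63 genes or means, each in both groups), by the ratio of the gap to the nearest tumour over the range. About 1 in 20 groups would do so by chance if the values were normal and the pairs independent. The pairs share the same tumours, and the means contain genes that are also examined singly. The 9 of 126 can therefore not be compared with that rate. All values here are log2 CPM. Aged 46 was high among aged tumours for Pcna (8.45, the next at 7.67), Prim1 (5.75, the next at 5.05), Uhrf1 (7.52, the next at 6.60), Mcm8 (4.33, the next at 3.76) and the mean of the replication genes (6.49, the next at 5.88). Young 43 was high among young tumours for Mcm4 (7.60, the next at 7.06), Ezh2 (6.91, the next at 6.29) and Lin54 (5.18, the next at 4.49). Aged 51 was high among aged tumours for Stag1 (6.87, the next at 6.10).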

How the results depend on the processing

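Over 19 alternatives, 0 of 722 fits of single members passed the adjusted threshold, and the smallest adjusted p was 0.325 (Cdc45, limma voom with sample quality weights). The number of all genes called, 0 by edgeR, was 43 by DESeq2 and 9 by limma voom with sample quality weights, and 0 with any tumour left out. Medians and means of the 2 sets moved by less than the spread between tumours throughout: the mitotic median was -0.08 to -0.02 and the replication median -0.17 to -0.01 in the fits other than single omissions. The mitotic minus the replication median, 0.06 by edgeR, was 0.156 by limma voom with sample quality weights and -0.07 without aged 50, aged 51 and young 36, an omission chosen after seeing the data. No paired analysis was run because the labels give no pairing of aged with young hosts. Depth left each member with at least 131 fragments per tumour.

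The fold changes lie near 0, and 28 of 38 members changed sign in at least 1 alternative, in 90 of the 722 fits. The cause was not tested. Of these members, Rfc4 and Cdt1 changed sign only without aged 50, aged 51 and young 36. The values below also hold Stag1 and Suv39h2, which come from the further lists and are not among the 38. With 1 tumour left out at a time, the log2 fold changes spanned -0.0966 to 0.145 for Birc5, -0.0646 to 0.236 for Tpx2, -0.24 to 0.134 for Pcna, -0.184 to 0.165 for Gins2, -0.137 to 0.17 for Rrm2, -0.223 to 0.192 for Mki67, -0.182 to 0.18 for Bub1, -0.17 to 0.136 for Aurka, -0.244 to 0.108 for Mcm7, -0.173 to 0.0985 for Pola1, -0.276 to 0.0274 for Prim1, -0.0831 to 0.043 for Ccnb2, -0.157 to 0.0909 for Ccna2, -0.169 to 0.0327 for Cdk1, -0.175 to 0.0901 for Aurkb, -0.148 to 0.09997 for Kif11, -0.266 to 0.059 for Mcm4, -0.178 to 0.0842 for Tk1, -0.223 to 0.123 for Ezh2, -0.123 to 0.232 for Cenpf, -0.501 to 0.0291 for E2f2, -0.0266 to 0.301 for Stag1, -0.333 to 0.0233 for Top2a, -0.311 to 0.079 for Bub1b, -0.254 to 0.0936 for Plk1, -0.395 to 0.117 for Cdc6, -0.221 to 0.0231 for Ccne1 and -0.283 to 0.0463 for Suv39h2. By limma voom with sample quality weights the values that changed sign were Ccnb2 0.0357, Aurka 0.0118, Cenpf -0.0854, Kif11 0.0628, Pcna -0.063, Gins2 -0.00169, Tk1 0.0819 and Ccne1 0.0406. With library size scaling they were Birc5 -0.0121 and Rrm2 -0.0036, with upper quartile factors Birc5 -0.00669, and without aged 50 and young 36 Aurka 0.00343, Birc5 -0.00583, Mcm7 0.00914, Prim1 0.00548 and Rrm2 -0.0465. Without aged 51 as well they were Ccnb2 0.012, Aurka 0.0584, Birc5 -0.0302, Cenpf -0.16, Tpx2 -0.00422, Mcm7 0.137, Rfc4 0.0316, Cdt1 0.0251, Prim1 0.119, Tk1 0.117, E2f2 0.0918, Ezh2 0.0127 and Stag1 -0.1002.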
